A study of Mus musculus with 46 samples.

Results

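The 5p arms of the late-registered mouse mirtrons, miR-6896-5p to miR-7094-5p, were followed through tissue degradation. The list held every array entry numbered within that stretch of miRBase whose name ends in -5p, with or without a letter after the number, and it was chosen by name alone. It took 200 of the 1881 miRNAs on the array, and the 3p arms of the same stretch served as the closest comparison. One-colour Agilent mouse miRNA arrays had been run on total RNA of heart, liver and brain of male C57BL6 mice of an Il1a knock-out strain, a background that every sample shared. Pieces of each organ were left for 0, 1, 3, 6, 12, 24, 48 or 96 h at 4 °C or at room temperature (RT) before the RNA was stabilised, and RNA integrity was given as the RIN value, in which low values stand for degraded RNA. The time labelled 12 h is a longer one in the methods. Of 46 arrays, 45 were analysed: 8 each of heart at RT, liver at RT, brain at RT and brain at 4 °C, 7 of heart at 4 °C (without 0 h) and 6 of liver at 4 °C (without 6 h and 96 h).

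As the methods read, the 3 organs at one temperature came from a single animal. The methods do not name array slides, and each combination of organ and temperature was taken here as its own slide. Within a tissue the effects of temperature, animal and slide therefore cannot be told apart. The pieces of an organ stand in for replicates, and p-values below measure the spread between those pieces, not between animals. RIN was over 6 on 33 arrays, of which 13 were heart, 6 liver and 14 brain, and it was 6 or lower on 12 arrays, of which 8 were liver and 2 each heart and brain. The defining miRNA of each tissue was highest in that tissue. On the arrays of RIN over 6, miR-1a-3p had a median log2 level of 14.43 in heart, miR-122-5p of 14.79 in liver and miR-124-3p of 13.41 in brain. On those arrays miR-124-3p was detected on 1 of 13 in heart and 0 of 6 in liver, and miR-1a-3p on 0 of 6 in liver but on all 14 in brain (median 5.56, up to 7.81). MiR-122-5p was detected on all 13 in heart (median 6.64) and on 13 of 14 in brain (median 2.23), and the part of such RNA in the results was not tested. The red cell miRNA miR-451a was detected on every array. The heart array of 0 h at 4 °C, set aside as of low quality in the methods, stood apart here too, with 15 members and 22 of the 3p arms detected.

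Mirtrons are short introns that fold into a hairpin after splicing and enter the miRNA pathway without the cut by Drosha that frees other precursors. Dicer then removes the loop and leaves a 5p and a 3p arm, one of which can guide an Argonaute protein to its targets through the seed, bases 2 to 8. In tailed mirtrons splicing sets only one end of the hairpin. A spliced intron ends in AG, and a mammalian mirtron is typically rich in guanine in its 5p arm and in pyrimidines in its 3p arm.

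The sequences were read for features of mirtrons. RefSeq (GRCm38.p6) gave a mature sequence for 176 of the 200 members and a hairpin for 171, and the genome span of a protein-coding gene enclosed all 171 hairpins, against 255 of 458 hairpins of the other 5p entries. The hairpin ended in AG for 158 of the 171 members (92.4%) and for 47 of 458 other 5p entries (10.3%). It began with GU for 26 members, and 20 hairpins had both GU at the start and AG at the end. Only the span of the gene was compared, and strand, introns and splice sites were not checked. MiR-6931-5p is shown as the model case. Its hairpin begins with GU and ends in AG, and it was among the members that followed storage time most closely. Its hairpin lies on the minus strand at chr11:102999848-102999921 inside the span of Dcakd, and the 5p arm, bases 6 to 26, is in capitals.

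Mir6931 hairpin: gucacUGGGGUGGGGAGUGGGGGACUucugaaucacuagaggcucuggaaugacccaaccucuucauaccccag

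Guanine made up 44.3% of the bases of the members, 15.7% of those of the 3p arms and 29.1% of those of the other 5p entries. The run GGG, searched on the mature RNA itself, occurred in 133 of 176 members (75.6%), in 8 of 175 sequenced 3p arms (4.57%) and in 30.4% of all 1608 array miRNAs with a sequence. The members had 155 different seeds, and 18 seeds were shared by 2 or 3 members, 39 members in all. The 5 members with the strongest correlation with RIN are shown with the seed in capitals, since a reader may ask whether one seed unites them; none does.

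miR-7068-5p (chr8:72470069-72470089, minus strand, within Cherp): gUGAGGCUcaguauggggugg

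miR-7046-5p (chr7:24970047-24970070, minus strand, within Rabac1): uGUAGGGUgaggcugggagccagg

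miR-7033-5p (chr5:135383783-135383805, minus strand, within Pom121): uCUCCAGGagucugaggggcagg

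miR-7081-5p (chr9:20914134-20914159, minus strand, within Dnmt1): aGAGGAGGgugcucggccggggauua

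miR-7082-5p (chr9:21075563-21075583, minus strand, within Raver1): uACGGGCAggaggaggggagg

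MiR-6937-5p (chr12:28679325-28679348, plus strand, within Adi1) and miR-7047-5p had the longest run in common among all 4186 pairs of analysed members with a sequence. The 13 shared bases are in capitals, and no other sequenced miRNA on the array held them.

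miR-6937-5p: uagcuguaAGGGCUGGGUCUGugu

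miR-7047-5p: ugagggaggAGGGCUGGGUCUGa

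Detection was the first difference between intact and degraded tissue. A miRNA counted as detected where the scanner software set its gene-level detection flag. On the 33 arrays of RIN over 6, 25 to 72 of the 200 members were detected, with a median of 46, while a median of 23.7% of all 1881 miRNAs was detected. On the 12 arrays of RIN 6 or lower the members detected ranged from 29 to 123, with a median of 92.5 (46.25%), against a median of 32.65% of all miRNAs. The summed signal of detected miRNAs per array had a median of 335871 on the former and 402760 on the latter, and the part of this difference in the detection counts was not tested.

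Members followed the time course of each organ. In liver at RT 27 were detected at 0 h and 29 at 1 h, with RIN values of 7.1 and 6.0. After 3 h there were 46, after 6 h 87 and after 12 h 78. The last 3 arrays, from 24 h on, had 108, 96 and 115 members, with RIN values of 2.7 to 2.3. In heart at RT there were 40 to 52 members on the arrays up to 24 h, then 89 at 48 h (RIN 4.6) and 114 at 96 h (RIN 2.2). In brain at RT 42 to 60 members were detected up to 24 h, 108 at 48 h (RIN 5.5) and 123 at 96 h (RIN 3.3). Liver thus had its step between 3 h and 6 h and heart and brain between 24 h and 48 h. At 4 °C heart stayed between 43 and 50 members, liver between 25 and 46, and brain between 42 and 59 up to 48 h with 72 at 96 h, the array of lowest RIN (7.3) on that slide. The liver array of 48 h at 4 °C had a RIN of 3.4 and 46 members.

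**Figure D1:**
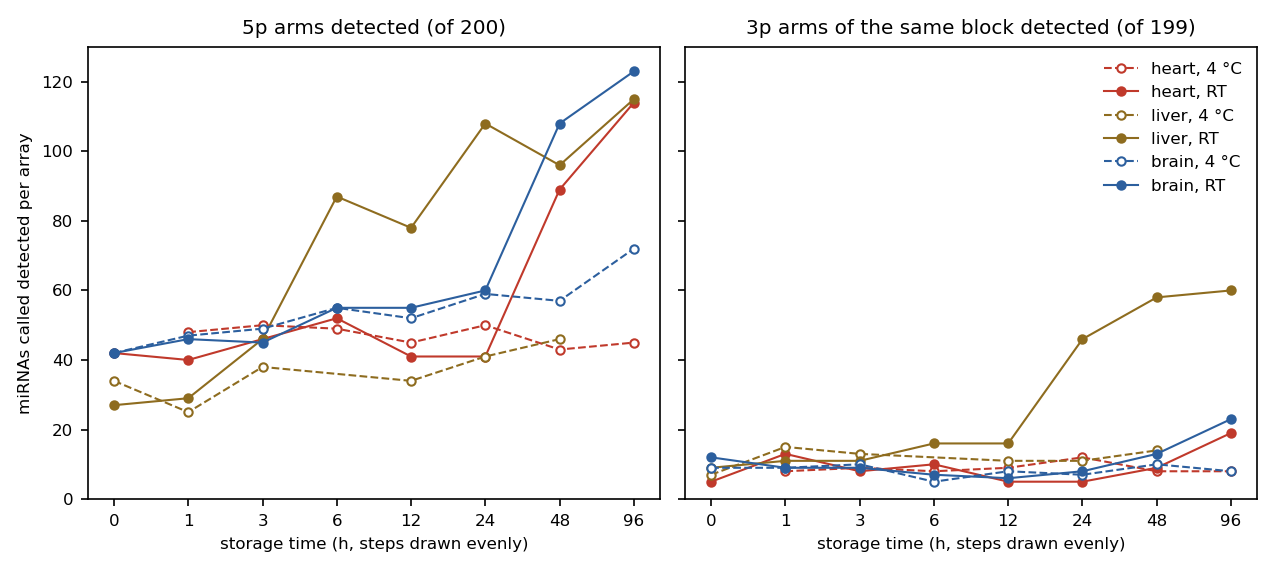
Number of miRNAs called detected on each array against storage time in hours (time steps drawn evenly), for the 200 mirtron 5p arms and for the 3p arms of the same stretch. Colours mark tissue, open symbols 4 °C and filled symbols RT; the 5p arms reach 114 to 123 at 96 h at RT in all tissues, and the 3p arms pass 40 only in liver at RT from 24 h on.

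The 3p arms behaved differently in number. Between 5 and 15 were detected on the arrays of RIN over 6, and more 5p than 3p arms were detected on each of the 45 arrays. In liver at RT they numbered 16 at 12 h and 46, 58 and 60 on the 3 later arrays, whereas the 96 h RT arrays of heart and brain had 19 and 23. Of 198 hairpins with both arms on the array, the 5p arm was detected on more arrays in 118, the 3p arm in 32 and neither arm on any array in 44.

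Over the 45 arrays, 64 members were detected on no array, 31 on 1 to 4, 82 on 5 to 44 and 23 on all. Among the 136 members seen at all, 53 were detected only on arrays of RIN 6 or lower and 0 only on arrays of higher RIN. For all 1072 miRNAs seen at all, these numbers were 288 and 46. At RT, 26 members were detected at 0 h in all 3 tissues and 100 at 96 h in all 3. Detection rose among all 1881 miRNAs too between these arrays, from 390 to 683 in heart, 310 to 726 in liver and 491 to 798 in brain. Guanine content rose with detection, from 38.9% in members detected on no array to 43.3%, 46.4% and 51.9% in the 3 higher classes. Across the 176 members with a sequence, guanine content and the number of arrays with detection had r = 0.46, and across all 1608 sequenced miRNAs r = 0.21. These correlations are across miRNAs, which are not independent replicates and share base composition within the stretch, and are given without a test.

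The share of the summed signal of detected miRNAs that came from members moved with the same arrays. The brightness of different probes is not an abundance, so only the change of this share between arrays is read. On the arrays of RIN over 6 it was 0.153% to 1.27%, with a median of 0.475%. At RT it went from 0.308% at 0 h to 13.3% at 96 h in heart, from 0.187% to 14.2% in liver and from 0.36% to 5.91% in brain. MiR-7047-5p alone gave 5.07%, 4.05% and 1.02% of the summed signal on those 3 arrays of 96 h. The 3p arms together stayed at or below 0.292% on every analysed array.

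The 23 members detected on all 45 arrays carried the clearest levels, since none of their values lies below background. They were miR-6898-5p, miR-6908-5p, miR-6931-5p, miR-6937-5p, miR-6965-5p, miR-6973b-5p, miR-6984-5p, miR-6987-5p, miR-6995-5p, miR-6997-5p, miR-7002-5p, miR-7011-5p, miR-7018-5p, miR-7020-5p, miR-7033-5p, miR-7036a-5p, miR-7042-5p, miR-7044-5p, miR-7045-5p, miR-7047-5p, miR-7048-5p, miR-7050-5p and miR-7082-5p. Levels are on a log2 scale after variance stabilizing normalization, so a difference of 1 is a doubling of signal for bright miRNAs and stands for more than that near background. Each is read by 2 or 3 probes, and the lowest correlation between probes of one member over the arrays had a median of 0.991, with 0.74 for miR-6987-5p at the low end. Between 0 h and 96 h at RT, the level of these members rose by a median of 2.71 in heart, 4.22 in liver and 2.49 in brain. The medians over all 180 miRNAs detected on every array were -0.43, -0.75 and -0.08 for the same differences.

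MiR-7047-5p had log2 levels of 7.83 to 12.92 (median 9.32) in heart at RT, 7.59 to 13.08 (median 11.04) in liver at RT and 7.25 to 10.85 (median 8.75) in brain at RT. At 4 °C it ranged from 8.03 to 9.77 in heart, 6.94 to 10.11 in liver and 7.19 to 8.70 in brain. The highest value stood at 96 h on all 3 RT slides and at the latest or next to latest time on the 4 °C slides. Between 0 h and 96 h at RT it gained 5.07 in heart, 5.49 in liver and 3.24 in brain. On the 4 °C slides the last array stood 1.74, 3.18 and 0.46 above the first. The medians over all 180 miRNAs detected on every array were 0.03, 2.08 and -0.22 for these 4 °C differences. In liver at 4 °C most of those miRNAs thus rose as well. MiR-6937-5p, which shares 13 bases with miR-7047-5p, gained 5.08, 5.45 and 3.22 between 0 h and 96 h at RT. Over the 45 arrays the levels of these 2 members had r = 0.997 and Spearman's rho = 0.995 (permutation p = 1e-05 for each, the smallest that 100000 permutations can give, and 0.00231 after multiplication by the 231 pairs of sequenced members detected on all arrays). Without the 2 arrays farthest from the median r was 0.996, and within the 33 arrays of RIN over 6 it was 0.993. The median r over the 231 pairs was 0.59. The permutation ran freely over tissues and storage times, so its p is against no relation at all. It does not set this pair apart from other pairs that rose together. Whether one RNA bound the probes of both was not tested. Among the 17 pairs of analysed members that share 10 or more bases, r ranged from -0.13, for miR-6912-5p with miR-7081-5p, to 0.997. The median was 0.71, against 0.56 over all pairs. Many of the 17 pairs hold a member detected on only 5 to 9 arrays, so their r rests largely on values without detection. A link between shared bases and r was not tested.

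MiR-6931-5p, the model case above, rose from 5.36 to 11.24 in heart, from 5.30 to 12.13 in liver and from 5.94 to 10.59 in brain at RT. In heart the step came between 24 h (7.32) and 48 h (10.61), in liver the level had reached 7.86 by 6 h, and in brain 7.33 by 3 h. At 4 °C it stayed between 3.89 and 6.91 in all tissues. The RT and 4 °C slides of brain no longer overlapped from 3 h on, although RIN in brain was still 7.3 or higher at 24 h at RT.

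MiR-7033-5p had its step in liver alone at an early time. In liver at RT its level was 2.44 at the start and 3.64 after 1 h. It was 5.22 after 3 h and 8.10 after 6 h, and it stayed between 8.10 and 8.41 thereafter. In heart and brain at RT the highest values were 6.74 and 6.65, both at 96 h. Liver reached its plateau where RIN had dropped to 2.8.

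MiR-6898-5p took another course from the late risers. At RT it went from 5.34 at 0 h to 8.48 at 6 h in heart, from 5.65 to 8.35 at 3 h in brain and from 5.77 to 7.71 at 3 h in liver, and by 96 h it was back at 6.25, 6.84 and 7.07. At 4 °C the highest value came at 24 h in heart (7.65) and at 48 h in brain (8.25) and liver (7.52). It was the only one of the 23 with its highest RT value at 6 h or before in all 3 tissues, whereas 14 had theirs at 48 h or 96 h in all 3. On the RT arrays of heart and brain between 3 h and 6 h, RIN was still 8.2 or higher. Its correlation with RIN over the 45 arrays was r = -0.07 (permutation p = 0.623). Within liver, however, it was higher on the arrays of RIN 6 or lower (7.03 ± 0.42, SD, n = 8) than on the others (6.07 ± 0.76, SD, n = 6), with an exact BH p of 0.0456.

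**Figure D2:**
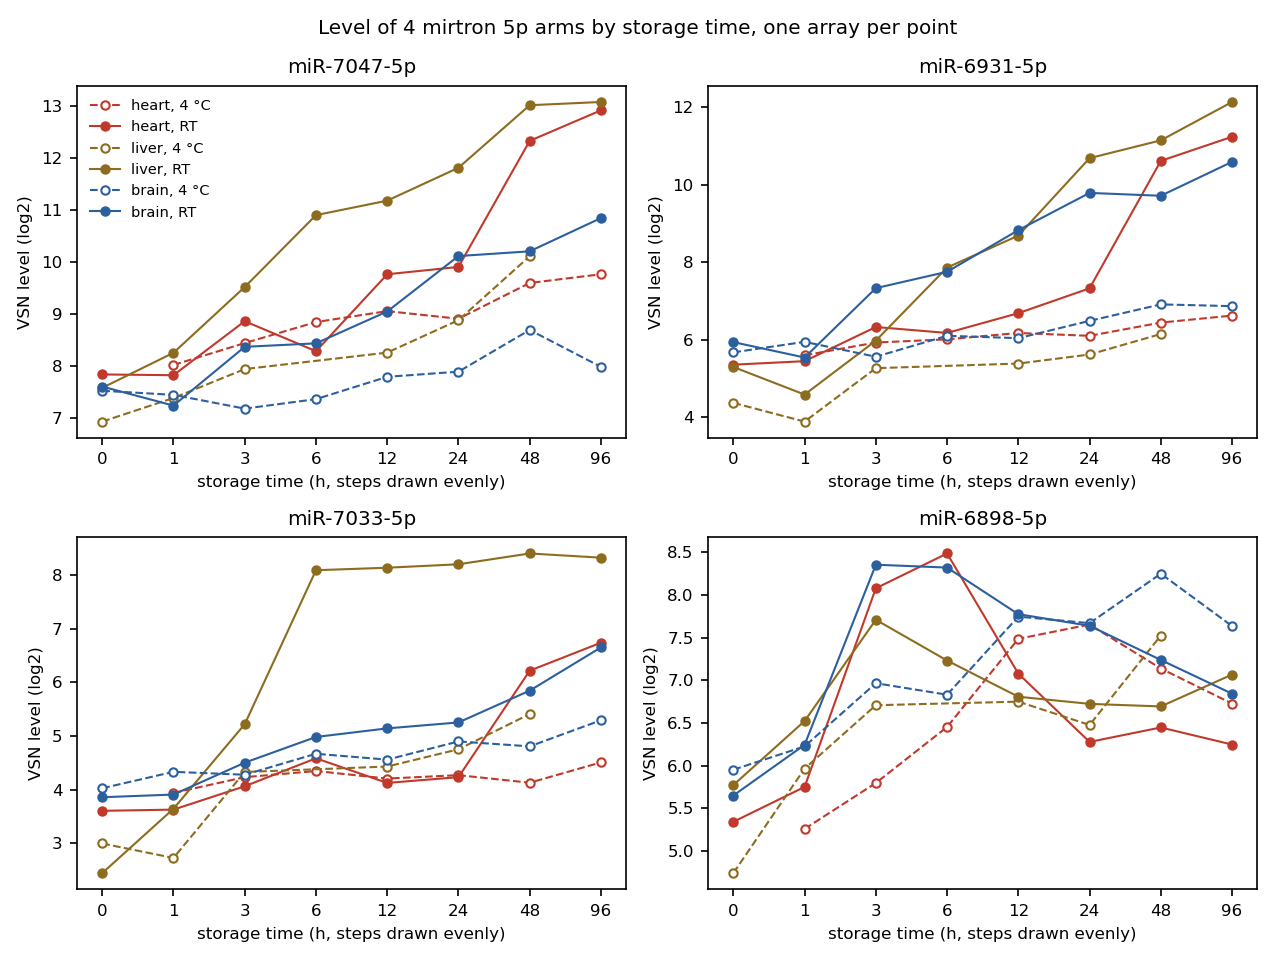
Normalised log2 level of miR-7047-5p, miR-6931-5p, miR-7033-5p and miR-6898-5p on each array against storage time in hours (time steps drawn evenly; each panel has its own scale). Colours mark tissue, open symbols 4 °C and filled symbols RT; the first 3 members end highest at 48 h or 96 h at RT, and miR-6898-5p peaks at 3 h to 6 h at RT and later at 4 °C.

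MiR-6995-5p went from 4.86 at 0 h to 9.40 at 6 h in liver at RT and was back at 5.08 at 96 h. MiR-7002-5p went from 5.05 at 0 h to 10.80 at 48 h and 10.93 at 96 h in heart at RT, and in liver at RT it peaked at 9.46 at 24 h. MiR-7045-5p rose most in liver, from 3.86 to 11.05. MiR-6987-5p was 4.12 at 24 h and 7.84 at 96 h in liver at RT, while its highest level in heart and brain was 4.77. MiR-7042-5p was as low as 4.79 at 12 h and as high as 9.30 at 96 h in liver at RT, and reached 9.39 at 96 h in brain at RT.

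**Figure D3:**
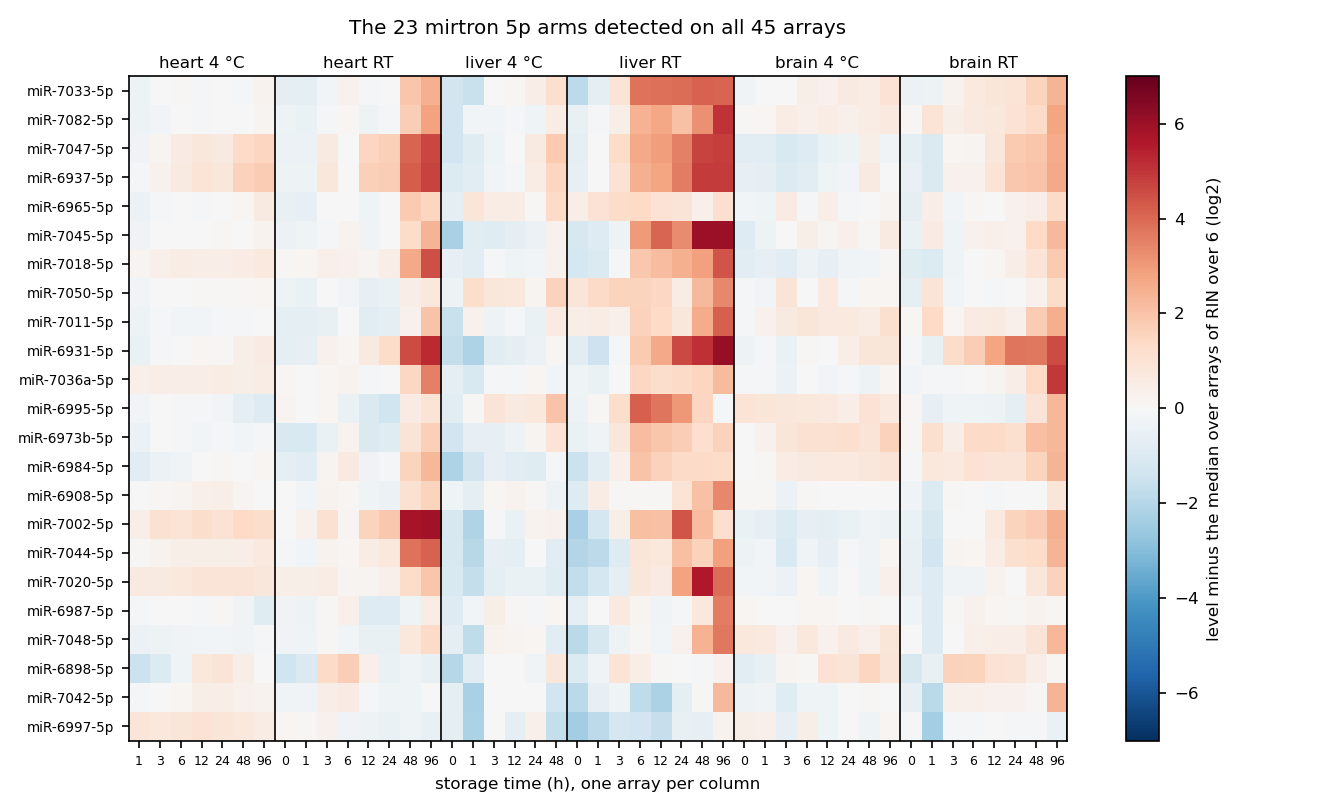
Level of the 23 members detected on all 45 arrays, one row per member and one column per array, as the log2 difference from that member's median over the 33 arrays of RIN over 6. Rows run from the most negative correlation with RIN (top, miR-7033-5p, r = -0.85) to the most positive (bottom, miR-6997-5p, r = 0.41); red columns gather at 48 h and 96 h in heart and brain at RT and from 6 h on in liver at RT.

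To relate the members to RNA integrity, the Pearson correlation with RIN was computed over the 45 arrays for each of the 815 miRNAs detected on at least 5 arrays, with Bonferroni adjustment over these 815. Members with high values only in degraded tissue could pass that filter only through the degraded arrays and then had to differ, so the counts over members that passed are descriptions. Of the 105 members tested, 50 had an adjusted p under 0.05, every one of them with a negative r, where the background was 36.3% of all 815 miRNAs called and 25.9% called with a negative r, with 10.4% on the positive side. With Benjamini-Hochberg (BH) adjustment in its place 90 members were called, against 74.0% of all. Among the 61 members that 5 or more arrays of RIN over 6 already detected, 29 were called (47.5%), against 32.2% of the 634 such miRNAs. Of the 23 members detected on all arrays, 17 were called, all negative, and among all 180 miRNAs so detected 52 were called with a negative and 29 with a positive r. The median r was -0.55 over the 105 members and -0.03 over the 815 miRNAs.

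MiR-7068-5p had the most negative correlation (r = -0.91, Bonferroni p = 3.64e-15, rho = -0.68, permutation p = 1e-05 for both). It was detected on 18 arrays, 11 of them of RIN 6 or lower. In heart at RT it lay between 1.86 and 2.35 up to 24 h and at 5.43 and 5.15 at 48 h and 96 h, in liver at RT between 2.09 and 7.73, and in brain at RT between 1.91 and 5.11. In liver at RT the highest values came at 6 h and 24 h and the level at 96 h was 5.42. MiR-7046-5p followed (r = -0.87, Bonferroni p = 7.16e-12, rho = -0.67), with 24 arrays of detection. Then came miR-7033-5p (r = -0.85, Bonferroni p = 2.25e-10, rho = -0.68), miR-7081-5p (r = -0.85, rho = -0.59) and miR-7082-5p (r = -0.84, Bonferroni p = 4.4e-10, rho = -0.69). MiR-7081-5p was detected on 5 arrays, all of RIN 6 or lower, and its other values lie below background, where they have no order. It passed the filter through the arrays on which it was high, so its r is a description, and after normexp background correction it was -0.47. With the 2 arrays farthest in RIN from the median left out, r of these 5 members was between -0.82 and -0.91.

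MiR-7082-5p, detected everywhere, shows how the relation was built. In heart at RT it lay between 5.71 and 6.32 up to 24 h and rose to 7.92 and 8.99 at 48 h and 96 h. In liver at RT it went from 5.68 to 11.24, and in brain at RT from 6.27 to 8.96. At 4 °C it stayed between 4.83 and 6.84. Its r with RIN was -0.99 within heart, -0.85 within liver and -0.95 within brain.

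Within single tissues all 50 called members had a negative r, with medians of -0.88 in heart, -0.80 in liver and -0.80 in brain. They were called on these same arrays, so the shared sign is a description. In heart and brain it rests on 2 arrays each of RIN 6 or lower. The pooled relation rests on the degraded arrays, however. Within the 33 arrays of RIN over 6, 0 of the 105 members and 0 of all 815 miRNAs had a Bonferroni p under 0.05, or one under 0.05 after BH adjustment. At an unadjusted p under 0.05 there were 26 members and 104 miRNAs. The median r there was -0.09 over the members and -0.09 over all 815, while within the 12 arrays of RIN 6 or lower the medians were -0.51 and -0.07. With heart left out 28 members were called, and without the 96 h arrays 33. Neither of these counts has one over all miRNAs beside it, so the drop is no trait of the members.

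**Figure D4:**
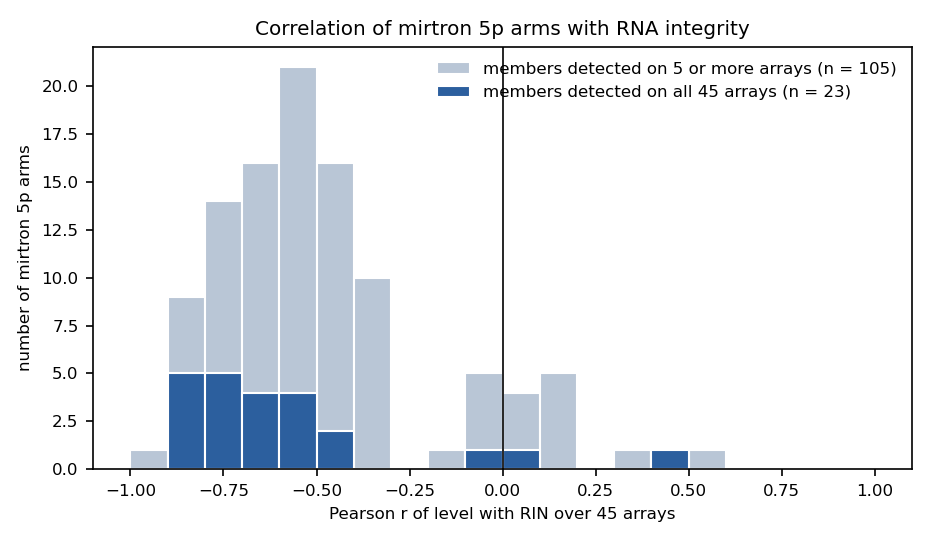
Number of mirtron 5p arms by Pearson r of level with RIN over 45 arrays, in steps of 0.1. Pale bars count the 105 members detected on 5 or more arrays and dark bars, drawn over them, the 23 detected on all arrays; the medians are -0.55 and -0.67, and 12 and 2 members lie above 0.

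Storage time at RT gave a related picture over 24 arrays. Adjusted in the same way, 22 of the 105 members were called, all with a positive r. Of all 815 miRNAs, 12.3% were called, made up of 10.3% called as rising and 1.96% as falling with time. With BH adjustment 81 members were called, against 53.9% of all. Of the 23 members detected on all arrays 10 were called, against 16.7% of the 180 such miRNAs. MiR-6915-5p (r = 0.90) and miR-7052-5p (r = 0.83) were detected only on arrays of RIN 6 or lower, 5 and 9 of them, so they passed the filter through the arrays on which they were high and their r is a description. Those of miR-6915-5p were the arrays of 48 h and 96 h in heart and brain and of 96 h in liver. Among members seen on every array miR-7036a-5p led (r = 0.89, Bonferroni p = 4.56e-06, rho = 0.84) and then miR-7048-5p (r = 0.84, Bonferroni p = 0.000304, rho = 0.77) and miR-6931-5p (r = 0.83, Bonferroni p = 0.000403, rho = 0.92). The permutation p of these 3 was at most 4e-05. Without the 2 arrays farthest from the median time their r was between 0.78 and 0.89.

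MiR-7036a-5p moved late. In brain at RT it was between 4.95 and 5.58 up to 24 h, 6.52 at 48 h and 10.09 at 96 h. In heart at RT it was between 5.02 and 5.36 up to 24 h, 6.55 at 48 h and 8.67 at 96 h, and in liver at RT it went from 4.82 to 7.33. Its slope against RIN was steepest in brain, -0.86 log2 units per RIN unit, with -0.48 in heart and -0.26 in liver. The slopes differed between tissues by limma's interaction term, with an adjusted p of 0.0146. That test called 2 of the 105 members and 2.09% of all 815 miRNAs.

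Within each tissue all 22 members called with RT time had a positive r, between 0.68 and 0.99. They were called on these same arrays, so a shared sign was likely beforehand and is a description. The count changed with the arrays used: it was 8 without the 96 h arrays, 5 without heart, 7 without brain and 7 without the 2 arrays farthest from the median time. These counts have none over all miRNAs beside them, so the change is no trait of the members. At 4 °C, over 21 arrays, 1 member was called, miR-6971-5p (r = 0.79, Bonferroni p = 0.0169, rho = 0.82, permutation p for r = 1e-05), where 0.982% of all miRNAs were called, 0.859% rising and 0.123% falling. With BH adjustment 7 members and 5.28% of all miRNAs were called. In brain at 4 °C it went from 1.94 at 0 h to 4.76 at 96 h, in heart from 2.35 at 1 h to 4.04 at 96 h, and in liver from 1.79 at 0 h to 2.79 at 48 h, the only liver array at 4 °C that detected it. Without the 96 h arrays its r was 0.66 and the call was lost, as it was without heart and without brain.

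Liver held enough arrays on both sides of RIN 6 for a comparison within one organ, 8 of RIN 6 or lower against 6 of higher RIN. With an exact two-sided Wilcoxon-Mann-Whitney test and BH adjustment over 815 miRNAs, 55 of the 105 members were higher and 0 lower in degraded liver, where 24.8% of all miRNAs were higher and 2.94% lower, 27.7% in all. Many members entered through degraded arrays, and of the 61 detected on 5 or more arrays of RIN over 6, 30 were called (49.2%), against 24.4% of the 634 such miRNAs. Of the 23 detected on all arrays 13 were called, against 30.6% of 180. The median difference was 2.18 over the members and 0.33 over the 815 miRNAs. The 55 are split here by detection, without the same split over all miRNAs: 32 were detected on no liver array of RIN over 6, and 13 were detected on all 14 liver arrays. Among those 13, miR-7045-5p went from 4.00 ± 0.66 (SD, n = 6) to 7.67 ± 2.74 (SD, n = 8), with an exact BH p of 0.0322. MiR-7047-5p went from 7.84 ± 0.69 to 10.99 ± 1.67 (exact BH p = 0.0271) and miR-7082-5p from 5.73 ± 0.46 to 8.21 ± 1.72 (exact BH p = 0.0209), with the same numbers of arrays. The array of 1 h at RT, with a RIN of 6.0, had the lowest level of its group for these 3, such as 8.26 for miR-7047-5p. The groups overlapped for miR-7045-5p and miR-7047-5p and did not for miR-7082-5p.

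By size of difference the leading members were miR-7016-5p (4.92), miR-7040-5p (4.55), miR-6916-5p (4.40), miR-7081-5p (3.94) and miR-6942-5p (3.84). Only miR-7040-5p was detected in both groups, on 7 of 8 arrays of low and 2 of 6 of high RIN. Its level was 1.98 ± 0.82 (SD, n = 6) on the arrays of high and 6.53 ± 3.02 (SD, n = 8) on those of low RIN, with an exact BH p of 0.0322, and it was 10.48 at 96 h at RT. The first of these means rests mostly on values without detection, so no fold is given. The other 4 were detected on no array of RIN over 6 in any tissue and passed the filter through degraded arrays alone, so that their differences are descriptions without a test, and only a bound can be given. Set against the lowest level of a detected miRNA on each array, or the member's own value where that was higher, miR-7016-5p was at least 2.37-fold and miR-6942-5p at least 1.51-fold higher in degraded liver, and miR-6916-5p and miR-7081-5p gave no fold. Without the array of 1 h at 4 °C (RIN 7.4) 5 members were called, and miR-7040-5p was not among them (BH p = 0.0697 by the exact test). A smaller group also raises the smallest p that the exact test can give, and the part of that array's own values was not tested. Slide and RIN overlap, since 7 of the 8 degraded arrays lay on the RT slide and 5 of the 6 others on the 4 °C slide, and a limma fit blocked by slide called 0 members. Neither count has one over all miRNAs beside it.

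Tissue differences were read from the 33 arrays of RIN over 6 with limma, the slide entering as a random block. Members were on the whole higher in brain and lower in liver, as were all miRNAs. In brain against heart 48 members were higher and 14 lower at a BH p under 0.05, where 69.0% of all miRNAs were called, 47.1% higher and 21.8% lower. In liver against heart 3 were higher and 53 lower, where 54.1% of all were called, 9.33% higher and 44.8% lower. In brain against liver 71 were higher and 2 lower, where 72.6% of all were called, 58.0% higher and 14.6% lower. Many of these calls concern signals below background: 13, 17 and 23 of the called members were detected on no array of either tissue. Among the called members detected on at least 50% of the arrays of one tissue, 18 were higher and 12 lower in brain than in heart, 1 higher and 29 lower in liver than in heart, and 31 higher and 1 lower in brain than in liver. The counts split by detection have none over all miRNAs beside them and are no trait of the members. In these 3 contrasts 59.0%, 53.3% and 69.5% of the members were called, no larger a share than of all miRNAs.

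MiR-6975-5p stood out in heart. It was detected on all 13 heart arrays of RIN over 6 (4.67 ± 0.27, SD), on 0 of 6 liver and on 0 of 14 brain arrays, and the ranges did not overlap. The level in heart was at least 7.46-fold that in brain (limma adjusted p = 5.72e-14) and at least 7.89-fold that in liver (limma adjusted p = 1.48e-13). MiR-7088-5p was likewise detected on all 13 heart arrays (4.21 ± 0.19, SD) and on 2 of 6 liver arrays (2.13 ± 1.14, SD) and was lower in liver (limma adjusted p = 5.16e-07), where most values again lie on arrays without detection. MiR-6918-5p was detected on 11 of 13 heart (3.73 ± 0.93, SD) and 4 of 14 brain arrays (1.97 ± 0.63, SD) and was lower in brain (limma adjusted p = 2.92e-05). Most of its brain values lie on arrays without detection, so the size of the difference is not given. MiR-6904-5p, detected on 11 of 13 heart and 0 of 14 brain arrays, was at least 2.11-fold lower (limma adjusted p = 0.00503). In heart at 4 °C both dropped late: miR-6918-5p was at 3.83 to 4.61 up to 24 h, then 2.31 at 48 h and 1.58 at 96 h, and was detected on neither of these 2 arrays.

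In brain, miR-6988-5p was detected on all 14 arrays (6.46 ± 0.53, SD) and on 11 of 13 heart arrays (3.29 ± 0.48, SD), a difference of 3.16 ± 0.29 (SE, limma adjusted p = 9.48e-12) with no overlap. It was also the other member whose slope against RIN differed between tissues, with slopes of 0.25 in heart, -0.38 in liver and 0.03 in brain (limma interaction, adjusted p = 0.0313). Its level in heart at RT ran from 4.05 at 3 h to 1.56 at 96 h, and in liver at RT from 0.86 at 0 h to 5.33 at 96 h. MiR-7007-5p was detected on all 14 brain and 0 of 6 liver arrays, at least 4.89-fold higher in brain (limma adjusted p = 3.1e-12), and miR-7056-5p on 11 of 14 brain and 0 of 6 liver arrays, at least 2.87-fold higher (limma adjusted p = 1.45e-10). MiR-6916-5p, miR-7032-5p, miR-7025-5p and miR-7057-5p also passed the test in one contrast or more but were detected on no array of either tissue, so no fold is given. MiR-7034-5p passed too and has no fold either. On the arrays of RIN over 6 it was detected in neither heart nor liver, and in brain only at 96 h at 4 °C. MiR-6998-5p passed in liver against heart with 1 detection in 6 liver and 0 in 13 heart arrays.

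In the opposite direction, 5 of the 23 members detected on all arrays had a higher mean in liver than in heart, and 2 a higher mean in liver than in brain. Among these only miR-7050-5p was called higher in liver. It was at 5.13 ± 0.57 (SD, n = 6) in liver, 4.42 ± 0.24 (SD, n = 13) in heart and 4.66 ± 0.44 (SD, n = 14) in brain. The difference from heart was 0.71 ± 0.21 (SE, limma adjusted p = 0.00513) and that of brain from liver -0.47 ± 0.21 (SE, limma adjusted p = 0.0425). Without scaling they were 0.23 and 0.16, neither called and the latter turned in sign, and without the liver array of 1 h at 4 °C the latter was -0.35 and not called. With arrays of the same animal and time paired it was -0.47 with an adjusted p of 0.0565 in limma.

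**Figure D5:**
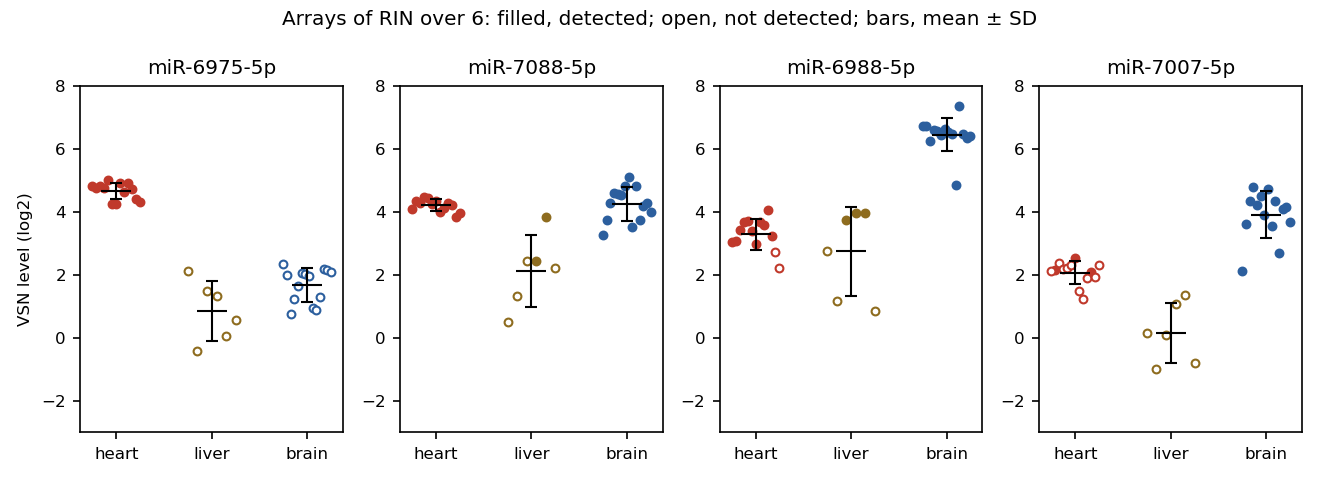
Normalised log2 level of miR-6975-5p, miR-7088-5p, miR-6988-5p and miR-7007-5p on the arrays of RIN over 6 (13 heart, 6 liver, 14 brain). Filled points were detected and open points were not; bars give the mean and SD. MiR-6975-5p was detected in heart only, miR-6988-5p was highest in brain, and miR-7007-5p was detected on no liver array.

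Both arms of a hairpin passed the detection filter in 14 pairs. In these, 9 of the 5p and 5 of the 3p arms were called with RIN, both arms in 4 pairs, and r had opposite signs in 5. For miR-7045 r was -0.80 for the 5p and -0.82 for the 3p arm, and for miR-6937 it was -0.81 and -0.74. These 3p arms were detected on 20 and 15 arrays, against 45 for each 5p arm, so most of their values lie on arrays without detection. For miR-7047 r was -0.84 and -0.53, the latter with a Bonferroni p of 0.146. For miR-7052 it was -0.61 and 0.51 and for miR-7016 -0.76 and 0.28, where neither positive value passed. The 5p arms of miR-7052 and miR-7016 were detected on degraded arrays alone, 9 arrays each. They passed the filter through the arrays on which they were high, so their r is a description. Both are among the called 5p arms and the pairs of opposite sign, so those counts are descriptions too. Of the 23 members of the 3p list that were tested, 5 had a negative and 2 a positive called r with RIN.

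For comparison, 5 mirtrons registered outside this stretch were set beside the list. Of their 5p arms 3 were detected on all 45 arrays, the others on 24 and 4. Among the 4 that were tested, r with RIN ranged from -0.90 to -0.41 with 3 called, and r with RT time from 0.63 to 0.91 with 3 called.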

How the data were processed

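Per the labels, total RNA including miRNAs was isolated with the miRNeasy kit, and the methods state that the optional DNase treatment was left out. The authors hybridised it to one-colour Agilent SurePrint mouse miRNA arrays and deposited spot intensity, background-corrected total gene signal and detection flags from Agilent Feature Extraction, together with a table of log2 values after variance stabilizing normalization (VSN). Each miRNA has 30 spots. Here VSN (generalised log2, trimming quantile 0.9, 7 iterations) was fitted to the deposited intensity over the 45 arrays; a fit over all 46 differed from the deposited log2 table by at most 0.0104. No spot was saturated, and the number of arrays limits precision.

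MiRNAs detected on at least 5 arrays were tested: Pearson correlation with RIN or time with Bonferroni adjustment, exact Wilcoxon-Mann-Whitney tests in liver with Benjamini-Hochberg adjustment, and limma 3.58.1 (R 4.3.3) for tissue contrasts with the slide as a random block (duplicateCorrelation, 0.02). Permutation p-values used 100000 permutations; other statistics used Python 3.11.15, numpy 2.4.6, scipy 1.17.1 and pandas 2.3.3. All were two-sided, and the scripts for the tests across all miRNAs were tested on simulated data. Below background, the bound was the lowest level of a detected miRNA on an array (0.19 to 1.74). The members, lists and tests were chosen with earlier results of these data known. Named were the members detected on all arrays, up to 5 called members with the largest size of effect in each direction for RIN, RT time and liver, and up to 3 for 4 °C time and each tissue contrast; the pairs and seeds shown for their sequence were chosen after their values were seen. Alternatives were other scalings between arrays, normexp background correction (offset 50) of median spot signals in place of the planned mean signals, the deposited table, filters of 3 and 10 arrays, other adjustments, rank correlation, blocks and array subsets. The genome position of miR-7047-5p is not reported here.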

Additional observations from a re-analysis of the deposited data

Results flagged for a closer look

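Among the 23 members detected on all arrays, a single array lay far from the others of its slide in 9 cases by Dixon's criterion. In all 160 groups of arrays were tested, about 5% of groups meet the criterion by chance, and the arrays of a slide differ in storage time. The array of 96 h at RT was the high one for miR-6987-5p in liver (7.84), miR-7011-5p in heart (6.36), miR-7036a-5p in heart (8.67) and brain (10.09) and miR-7082-5p in brain (8.96). Single low values were those of miR-6997-5p in brain at RT at 1 h (3.48), of miR-6908-5p (5.315) in brain at 4 °C at 3 h, of miR-6987-5p in heart at 4 °C at 96 h (3.42) and of miR-7050-5p in heart at 4 °C at 1 h (4.35).

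The slope of level against RIN differed between tissues for 2 named members by the interaction test of limma with BH adjustment over all 815 miRNAs. For miR-7036a-5p (limma adjusted p = 0.0146) the slopes were -0.48 log2 units per RIN unit in heart, -0.26 in liver and -0.86 in brain. For miR-6988-5p (limma adjusted p = 0.0313) they were 0.25 in heart, -0.38 in liver and 0.03 in brain.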

How the results depend on the processing

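The number of members called with RIN, 50, was 78 with no scaling between arrays, 90 with Benjamini-Hochberg adjustment, 81 with tissue and 79 with slide as a block, and 0 on the arrays of RIN over 6. The alternatives without heart (28) and without the 96 h arrays (33) were chosen after seeing the data, as were the others that leave out a tissue, the 96 h arrays or the liver array of 1 h at 4 °C. The number called with RT time, 22, was 13 and 4 when arrays were scaled to their 75th percentile, taken over the always detected or over all miRNAs, 10 with quantile normalization, 49 with no scaling, 81 with Benjamini-Hochberg adjustment, 53 by Spearman's rho, 7 without the 2 most distant arrays, 5 without heart, 7 without brain and 8 without the 96 h arrays. The single member called with time at 4 °C was lost (0) with either percentile scaling, quantile normalization, and without the 2 most distant arrays, heart, brain or the 96 h arrays, and there were 7 with Benjamini-Hochberg adjustment, 3 by Spearman's rho and 2 with tissue as a block. In degraded liver the 55 became 0 in limma with a slide block and 5 without the liver array of 1 h at 4 °C. In liver against heart the 56 became 31 at RIN 8 or higher, and in brain against liver the 73 became 46 with a filter of 10 arrays. The median of members detected on arrays of RIN over 6 was 36 instead of 46 where at least 50% of spots had to be well above background. The brain against liver difference of miR-7050-5p turned to 0.16 with no scaling. The cause of these shifts was not tested, and the counts of called members in this section are given without those over all miRNAs. The other 71 alternative counts stayed within 1.5 times the reported one. Of the values of single members, 402 kept their direction and call and 51 kept only their direction.

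Scaling moved the median liver difference of all 815 miRNAs from 0.33 to between -0.14 (quantile) and 1.07 (no scaling), and that of the members from 2.18 to 1.95 and 2.76. No paired analysis was possible because of replicate numbers, which are the same in every label. The tissues of one animal could instead be paired by temperature and storage time, an alternative chosen after seeing the data. With such pairs as a fixed term in limma, 75 members were called in brain against heart, 57 in liver against heart and 74 in brain against liver, and of the named members miR-7050-5p lost its call in brain against liver. Values below the lowest detected level of an array have no order, and 61 of the 105 members tested were detected on 5 or more arrays of RIN over 6.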
